A study of Drosophila melanogaster with 6 samples.

Results

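The histone lysine methyltransferases of the Trithorax and Polycomb systems, with the enzymes of H3K36, H3K79 and H4K20, were followed in heads of adult Drosophila melanogaster. The set was fixed by name and holds 10 genes, Set1, trx, trr, E(z), ash1, Set2, NSD, gpp, Set8 and Hmt4-20, of 17753 genes in the count table. All 10 had counts in every library and passed the filter on low counts, which left 14069 tested genes. The heads came from a knockout of the histone demethylase gene Kdm3 (Kdm3 KO) and from wBerlin, the control strain, with 3 libraries of each genotype. Each library was made from total RNA of 50 heads, after removal of ribosomal RNA, and the adults were 2 to 7 days past eclosion and kept at 25 °C and 70% humidity. The labels call the replicates biological but do not say whether they came from separate vials or crosses, so the p-values measure only the spread between these samples. They also leave unstated the sex of the flies, how the Kdm3 allele was made and whether the knockout is a single line.

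These enzymes place methyl groups on lysines of histone tails or, for gpp, of the histone core. Methylation of H3K4 and H3K36 is found at active genes and is made in part by Trithorax-group proteins, which keep homeotic genes on. Methylation of H3K27 by the Polycomb complex PRC2 keeps such genes off. H3K79 methylation lies over transcribed genes, and H4K20 methylation is tied to chromosome condensation and the cell cycle. All but gpp carry their activity in a SET domain. Kdm3 itself belongs to the JmjC family, which removes methyl groups from histone lysines, and the comparison asks how its loss changes the transcripts of head tissue, here those of the enzymes that add the groups.

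The targeted gene Kdm3 was at 3.86, 0.642 and 0.710 CPM (counts scaled by library size and TMM factor) in Kdm3 KO replicates 1, 2 and 3, against 32.5, 30.1 and 28.7 CPM in wBerlin. Kdm3 fell by 4.09 in log2 units (SE 0.493, edgeR adjusted p = 0.00344). Library totals ran from 19850981 to 25571878 counts in Kdm3 KO and from 21935654 to 28237382 in wBerlin, and Kdm3 KO replicate 2, the shallowest library, stood apart on the first principal component. The 9 photoreceptor markers summed to between 30829 and 41111 CPM in Kdm3 KO and between 34445 and 48289 CPM in wBerlin, and the 8 neuron markers to between 4125 and 4397 CPM against 4119 and 5176 CPM. Markers of other tissues moved with the genotype or with single libraries. The 11 fat body markers, with apolpp and Pepck1 at 0, summed to between 18627 and 23869 CPM in Kdm3 KO and between 8234 and 13371 CPM in wBerlin, and 4 of the 9 tested rose (fit, Yp3, Apoltp and Fbp2) and 1, to, fell. Without wBerlin replicate 2 the call of fit alone remained (adjusted p 0.0435), Apoltp was also lost without Kdm3 KO replicates 1 or 3 (0.0616 and 0.0706) and Fbp2 without wBerlin replicate 3 (0.0813). The call of to was lost without Kdm3 KO replicates 2 or 3 or wBerlin replicates 1 or 2 (adjusted p 0.0541 to 0.115). The 12 muscle markers, with bt at 0, summed to between 12345 and 19882 CPM in Kdm3 KO and between 15820 and 33491 CPM in wBerlin, and 1 of the 11 tested fell, Act87E (adjusted p = 0.0409), a call lost with any library but wBerlin replicate 1 left out (adjusted p 0.0718 to 0.126). The muscle markers did not move as 1, since 8 had changes below 0 and 3 above, from -2.31 to 3.93 in log2 units. At an unadjusted p under 0.05 by edgeR, 5 were lower and 2 higher. The 10 gut markers summed to 26.4, 146 and 29.9 CPM in Kdm3 KO and 14.7, 18.8 and 21.5 CPM in wBerlin, so that every Kdm3 KO library lay higher and replicate 2 far above the rest. Of these, Amy-p and Amy-d, which encode amylases, rose by log2 fold changes of 3.26 and 2.31 (adjusted p 0.00154 and 0.00132), and by 2.90 and 2.11 without Kdm3 KO replicate 2 (0.00241 and 0.00280). The median log2 fold change of the tested gut markers was 1.16, but -0.21 without that library, so the other gut markers did not hold their rise as a set. The part of these tissues in the values below was not tested, and in whole heads fewer cells of a type and less RNA per cell cannot be told apart.

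None of the 10 methyltransferases passed the test in either direction. All 10 fitted changes were nevertheless below 0, at log2 fold changes between -0.25 and -0.02, with a median of -0.13 (91.4% of wBerlin for ash1, near the middle of the set, and 84.2% for Set2 and trr at its low end). Over all tested genes the median was 0.04, and 43.6% of genes had a change below 0. The test called 303 genes higher and 129 lower, 3.07% of those tested, or 2.15% higher and 0.917% lower, so that 0 of 10 is near what this share gives. At an unadjusted p under 0.05 there were 2 of 10 lower and 0 higher by edgeR, as by DESeq2 and by limma voom, beside 7.51% of all tested genes lower by edgeR and 12.9% of those that reach the members' lowest level and shortest exon length. That count of lower members ran from 0 without Kdm3 KO replicate 1 to 6 without wBerlin replicate 3 (1 and 3 without Kdm3 KO replicates 2 and 3, 4 without wBerlin replicate 1), and was 5 with no filter on low counts. DESeq2 and limma voom also called none of the 10. The libraries of the genotypes did not overlap for 5 members, trx, trr, ash1, Set2 and gpp, all lower in Kdm3 KO, where 9.33% of all tested genes were lower without overlap and 18.7% were without overlap in either direction. Of genes that reach the members' lowest level and shortest exon length, 19.5% were lower without overlap.

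The intervals were narrow enough to bound the changes. The 95% interval had a median width of 0.21 to either side of the fitted log2 value for the 10 genes, against 0.33 over all tested genes. The lowest bound of any member was 72.6% of the wBerlin level, for trr and Set2, and the highest was a 1.13-fold higher level, for Set1. A change by a factor of 1.5 in either direction lay outside the interval of every member.

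**Figure D1:**
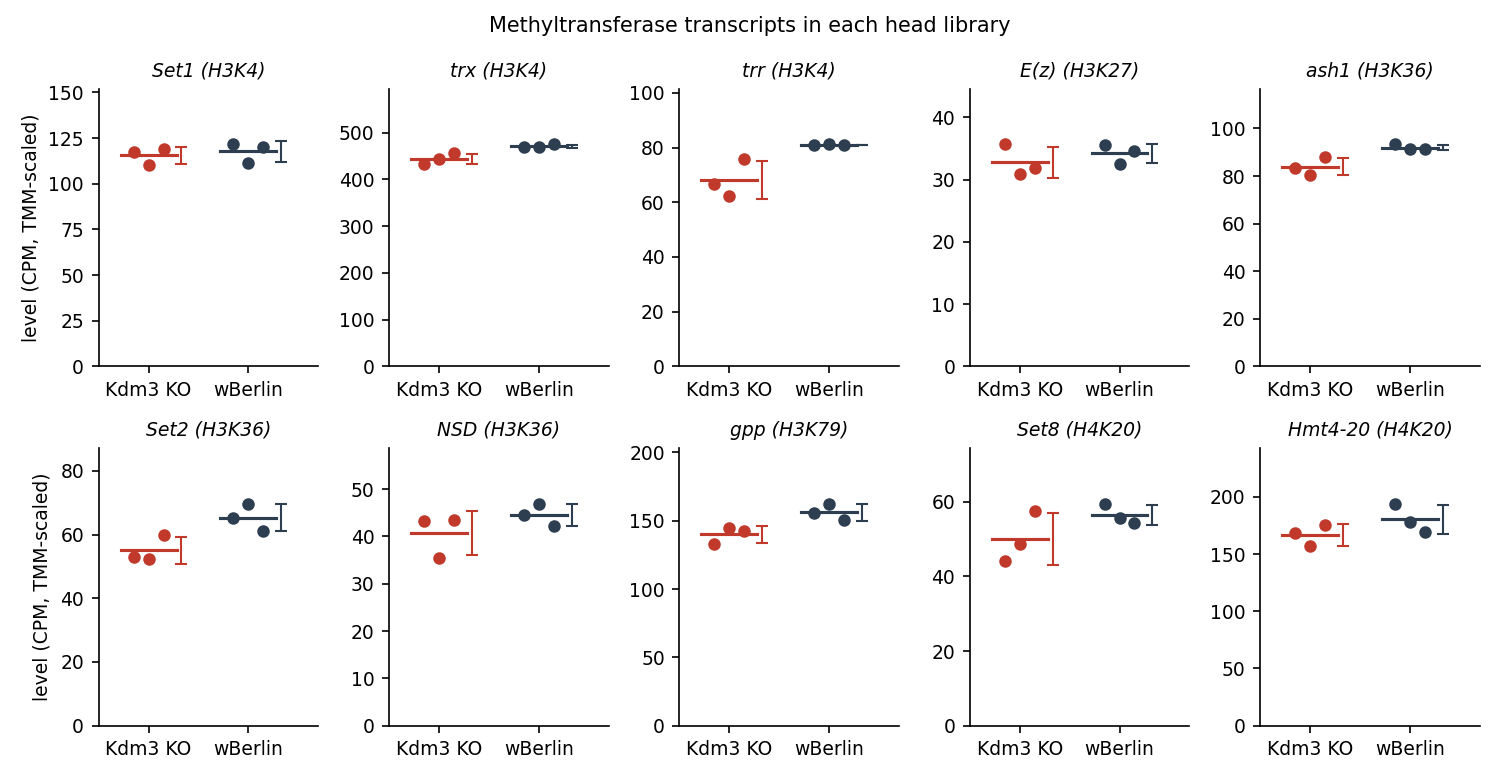
CPM of each methyltransferase in the 3 Kdm3 KO libraries (red) and the 3 wBerlin libraries (dark), with the mean as a line and the SD as a bar beside it, each axis starting at 0. The trr libraries of wBerlin lie within 80.95 to 81.13 CPM, all above the Kdm3 KO libraries, while those of Set1 and E(z) overlap.

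Of the H3K4 enzymes, Set1 makes most of the di- and trimethylated H3K4 in flies. Set1 (FBgn0040022, arm 3L, 25107594 to 25115180, BDGP6) was at 117, 110 and 119 CPM in Kdm3 KO replicates 1, 2 and 3, against 122, 111 and 120 CPM in wBerlin replicates 1, 2 and 3. The 2 genotypes overlapped almost fully, and the lowest library of each was replicate 2. The log2 fold change was -0.02 (SE 0.0868, adjusted p = 0.934), the smallest in the set, with an interval of 0.859 to 1.13 times the wBerlin level.

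The gene trx encodes Trithorax itself, the H3K4 methyltransferase for which the group is named. It lies at 14263358 to 14286903 on arm 3R (FBgn0003862) and had 432, 443 and 455 CPM in Kdm3 KO against 470, 468 and 474 CPM in wBerlin. Every Kdm3 KO library was below every wBerlin library, by a small margin. The mean was 443 ± 11.5 CPM in Kdm3 KO and 471 ± 3.15 CPM in wBerlin (SD, n = 3 each), a log2 fold change of -0.09 (SE 0.0939, adjusted p = 0.754).

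The gene trr encodes the Trithorax-related protein, which monomethylates H3K4 at enhancers and works in a complex with the H3K27 demethylase Utx. It was at 66.8, 62.1 and 75.8 CPM in Kdm3 KO against 80.95, 81.13 and 81.01 CPM in wBerlin (FBgn0023518, arm X, 1881313 to 1889950). The wBerlin libraries were nearly identical, and the Kdm3 KO libraries lay lower and apart from each other. The lowest trr count of any library, 1355 in Kdm3 KO replicate 2, had a counting error of 2.72%. That of the lowest wBerlin count, 1770, is somewhat smaller, and the wBerlin values lay closer together than such errors. For trr the log2 fold change was -0.25 (SE 0.0953), a fold of 0.842 with an interval of 0.726 to 0.977, at an unadjusted p of 0.0274 and an adjusted p of 0.252. The call depended on the settings, since the adjusted p was 0.0423 with upper quartile scaling and 0.0369 with a filter of 5 CPM.

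Methylation of H3K27 rests on E(z), Enhancer of zeste, the catalytic subunit of PRC2. E(z) (FBgn0000629, arm 3L, 10634575 to 10638130) was at 35.6, 30.8 and 31.8 CPM in Kdm3 KO and 35.5, 32.6 and 34.6 CPM in wBerlin. The highest and the lowest library were both Kdm3 KO, so the genotypes overlapped. The log2 fold change was -0.06 (SE 0.0948, adjusted p = 0.831), with an interval of 0.827 to 1.11 times wBerlin.

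H3K36 has its own enzymes, ash1, Set2 and NSD. The Trithorax-group gene ash1 makes dimethylated H3K36 and opposes Polycomb silencing. It was at 83.5, 80.6 and 87.9 CPM in Kdm3 KO and 93.3, 91.4 and 91.2 CPM in wBerlin (FBgn0005386, arm 3L, 19590773 to 19598755). The groups did not overlap, and the log2 fold change was -0.13 (SE 0.0825, adjusted p = 0.555).

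The gene Set2 encodes the enzyme that travels with RNA polymerase II and trimethylates H3K36 over gene bodies. It was at 52.9, 52.4 and 59.7 CPM in Kdm3 KO against 65.2, 69.7 and 61.1 CPM in wBerlin (FBgn0030486, arm X, 13413242 to 13421024). Every Kdm3 KO library lay lower, the highest of them close to the lowest of wBerlin. The mean was 55.0 ± 4.11 CPM in Kdm3 KO and 65.3 ± 4.29 CPM in wBerlin (SD, n = 3 each), a fold of 0.842 with an interval of 0.726 to 0.976. The log2 fold change of -0.25 (SE 0.0951) had an unadjusted p of 0.0269 and an adjusted p of 0.249, and Set2 was not called under any alternative (adjusted p 0.0730 to 0.573).

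The gene NSD encodes a further H3K36 methyltransferase, of the family of the human NSD proteins. It was at 43.3, 35.5 and 43.4 CPM in Kdm3 KO and 44.6, 46.9 and 42.2 CPM in wBerlin (FBgn0039559, arm 3R, 27932982 to 27937853). Only Kdm3 KO replicate 2 lay below all wBerlin libraries. The log2 fold change was -0.13 (SE 0.105, adjusted p = 0.660), and -0.03 without that library. Its exons share 96 bases with mino on the other strand, a gene that rose to 256 ± 29.2 CPM in Kdm3 KO, against 161 ± 25.0 CPM in wBerlin (SD, n = 3 each, edgeR adjusted p = 0.0319). No source used here says whether strand was used in counting.

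The gene gpp encodes grappa, the Dot1 enzyme of H3K79. It was at 133, 145 and 142 CPM in Kdm3 KO against 155, 162 and 151 CPM in wBerlin (FBgn0264495, arm 3R, 6406855 to 6449274). The Kdm3 KO libraries all lay lower. The mean was 140 ± 6.20 CPM in Kdm3 KO and 156 ± 5.99 CPM in wBerlin (SD, n = 3 each), a log2 fold change of -0.16 (SE 0.0873, adjusted p = 0.484).

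On H4K20, Set8 adds the first methyl group and Hmt4-20 adds the further ones. Set8 was at 44.1, 48.7 and 57.7 CPM in Kdm3 KO and 59.5, 55.7 and 54.5 CPM in wBerlin (FBgn0011474, arm 3R, 14316038 to 14320494). Kdm3 KO replicate 3 lay within the range of wBerlin and the other Kdm3 KO libraries below it, and no other member spread as far over the 6 libraries, 1.35-fold from lowest to highest. Set8 had a log2 fold change of -0.17 (SE 0.111, adjusted p = 0.560), with -0.08 when Kdm3 KO replicate 1 was left out and -0.28 when Kdm3 KO replicate 3 was. Hmt4-20 was at 169, 157 and 176 CPM in Kdm3 KO and 194, 179 and 169 CPM in wBerlin (FBgn0025639, arm X, 648483 to 656033). The genotypes overlapped, and the log2 fold change was -0.11 (SE 0.0962, adjusted p = 0.682).

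**Figure D2:**
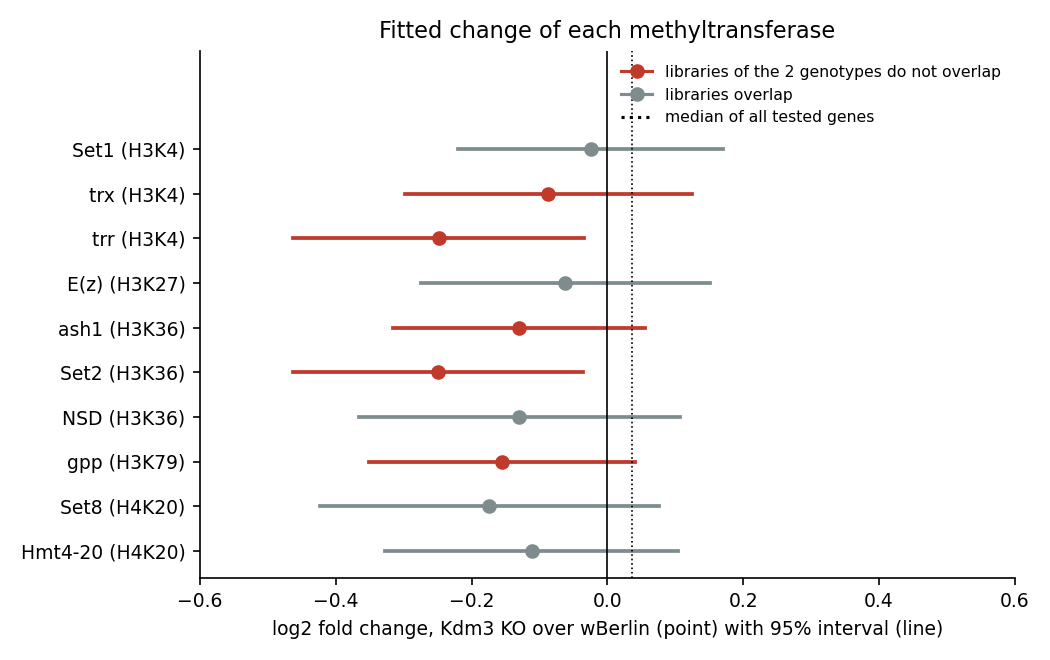
Log2 fold change of each methyltransferase, Kdm3 KO over wBerlin, with its 95% interval as a line. All 10 points lie below 0, between -0.25 and -0.02, and the intervals of trr and Set2 alone stay below 0. Red marks the 5 genes whose libraries do not overlap between genotypes, and the dotted line is the median of all tested genes.

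The members differed more from each other in level than between genotypes. Per kilobase of exon (RPKM, from the TMM-scaled values and the union of annotated exons), trx was the highest at 31.6 ± 0.816 in Kdm3 KO and 33.5 ± 0.224 in wBerlin (SD, n = 3 each). Hmt4-20 came next at 26.9 ± 1.56 and 29.1 ± 2.04 RPKM in Kdm3 KO and wBerlin, and then Set1 at 20.8 ± 0.837 and 21.2 ± 1.02 RPKM. These 3 were apart from each other and from the rest in both genotypes. Set8, gpp, E(z) and ash1 followed at 13.5, 13.3, 12.8 and 12.1 RPKM in wBerlin, and each overlapped its neighbour in that order. At the low end, trr, NSD and Set2 were at 9.75, 9.71 and 8.62 RPKM in wBerlin, again with neighbours overlapping. In Kdm3 KO, E(z) stood above Set8 and gpp, and NSD above trr, and the libraries of these genes overlapped there too.

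**Figure D3:**
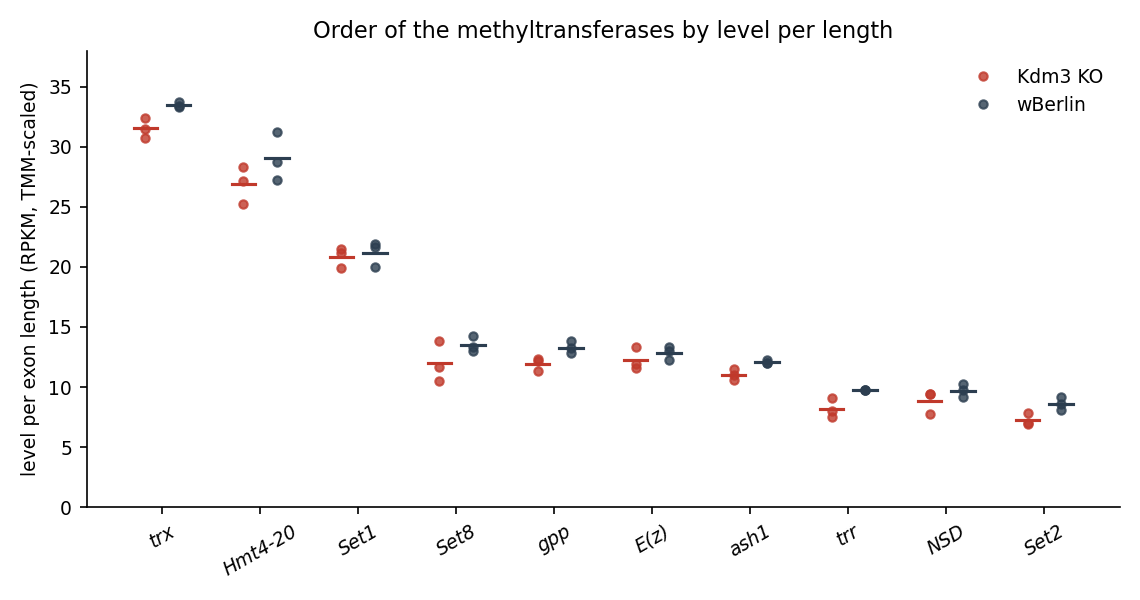
Level per exon length (RPKM) of each methyltransferase in the 3 Kdm3 KO libraries (red) and the 3 wBerlin libraries (dark), with means as lines, ordered by the wBerlin mean. The genes trx, Hmt4-20 and Set1 stand above the other 7, which lie between 7.25 and 13.5 RPKM on average.

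Summed by the lysine they modify, the H3K4 enzymes made up 40.2% of the summed RPKM of the 10 genes in Kdm3 KO and 39.4% in wBerlin, the H4K20 enzymes 25.8% and 26.0%, and the H3K36 enzymes 18.0% and 18.6%. E(z) made up 8.16% in Kdm3 KO and 7.85% in wBerlin, and gpp 7.92% and 8.13%. These shares of RNA were thus close between genotypes, and no protein or histone mark was measured. The sum of all 10 was 151 ± 6.68 RPKM in Kdm3 KO and 164 ± 3.69 RPKM in wBerlin (SD, n = 3 each), with 158 in the highest Kdm3 KO library and 160 in the lowest wBerlin library.

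Enzymes that remove the same marks were set beside those that add them, as a ratio of levels per length chosen after the values were seen and given without a test. For H3K27, E(z) over Utx was 1.01, 0.920 and 0.898 in Kdm3 KO and 1.03, 0.932 and 0.950 in wBerlin. For H3K4, the summed level of Set1, trx and trr over that of the demethylase genes Kdm5 and Su(var)3-3 was 1.65, 1.72 and 1.63 in Kdm3 KO and 1.60, 1.62 and 1.68 in wBerlin. For H3K36, ash1, Set2 and NSD over Kdm2, Kdm4A and Kdm4B gave 0.913, 0.946 and 0.999 in Kdm3 KO and 0.965, 1.02 and 0.959 in wBerlin. The genotypes overlapped in each of the 3 ratios.

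The size of the small differences varied with the libraries used, while the members' median stayed below 0 with any 1 left out (-0.21 to -0.09). Kdm3 KO replicate 2 was the lowest library for 7 of the 10 genes and Kdm3 KO replicate 1 for the other 3, while the highest library was a wBerlin library for 9 of 10. Without Kdm3 KO replicate 2 the members' median was -0.09 and 9 of 10 changes were below 0, Set1 being the exception. In the 4 libraries left without Kdm3 KO replicate 2 and wBerlin replicate 1, an alternative added after the data were seen, the median was -0.09 and 8 of 10 were below 0, Set1 and E(z) being the exceptions. No member was called in either fit.

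Among genes of this level, long genes more often had changes below 0, and most of the methyltransferases are long. Their annotated exons span 2665 to 14052 bases, beside a median of 1683 bases over all tested genes. Among the 4623 tested genes at or above the level of E(z), the lowest member, 55.4% had a change below 0. When the 4583 of these with an annotated exon length (40 had none) were divided by length into 4 classes of nearly equal size, the share below 0 was 35.7%, 46.5%, 61.1% and 78.3% from the shortest to the longest, and the median log2 fold change 0.06, 0.01, -0.04 and -0.10. Of the 10 methyltransferases 7 lie in the longest class, 2 in the next and 1 in the next shorter. The longest class holds trx, trr, ash1, Set2 and gpp, the members without overlap between the genotypes. In that class 27.4% of genes were lower without overlap, and 17.3% were lower at an unadjusted p under 0.05 by edgeR. Among the 2712 genes that reach the members' lowest level and shortest exon length, 67.1% were below 0 and 19.5% were lower without overlap between the genotypes. The gradient with length was present in each fit with 1 library left out and in the 4 libraries, where the share below 0 was 22.6% in the shortest class and 56.7% in the longest. The part of length in the members' values was not tested.

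**Figure D4:**
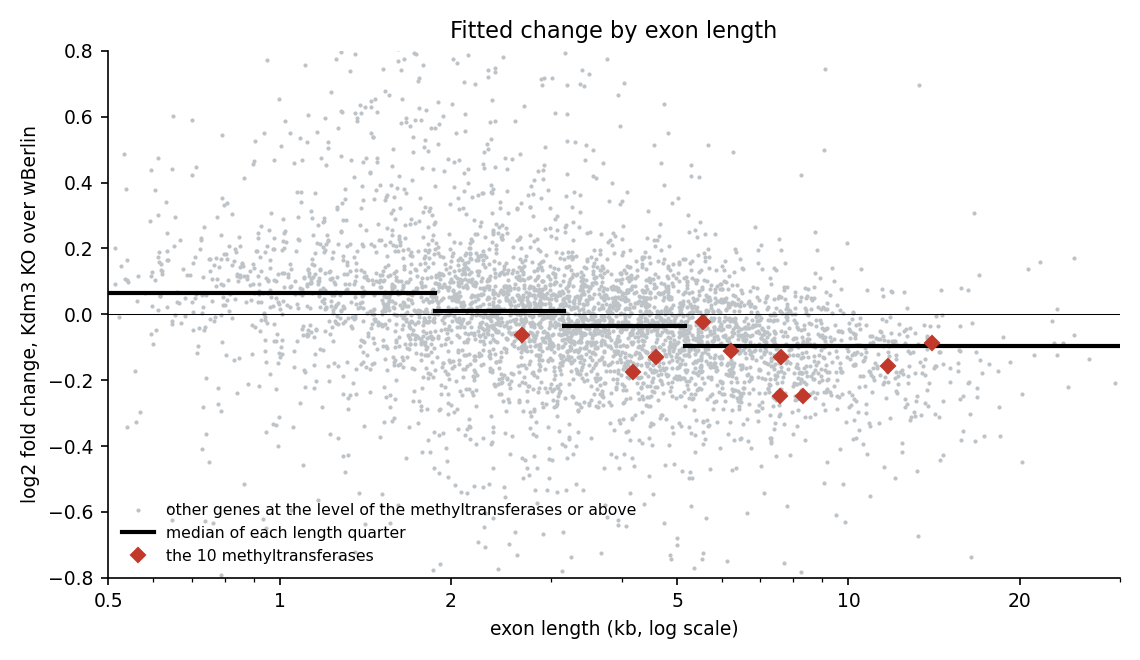
Log2 fold change, Kdm3 KO over wBerlin, against exon length in kilobases (log scale) for tested genes at or above the mean level of E(z); 253 genes lie outside the axes. The black lines are the medians of the 4 length classes, 0.06, 0.01, -0.04 and -0.10, and the 10 methyltransferases (red) lie between -0.25 and -0.02.

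Of the members, 3 lie on arm 3L, 4 on 3R and 3 on X. Kdm3 lies at 9516007 to 9520938 on 3R, and gpp is 3.07 Mb from it, trx 4.74 Mb, Set8 4.80 Mb and NSD 18.4 Mb. Set8 and trx are close neighbours, 29134 bases apart, on opposite strands. For these 4 genes, sequence linked to the Kdm3 allele and an effect of Kdm3 loss cannot be told apart. For the members on 3L and X, other sequence differences between the strains and an effect of Kdm3 loss cannot be told apart either. How the allele was made is unstated. Exons of 7 members overlap a gene on the opposite strand, over 7.27% of the exon length for Set8 and its neighbour Afti, and over less for the others.

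The partners of the methyltransferases were examined in lists chosen by role. Beside the counts in these lists, 43.6% of all tested genes had a change below 0. At an unadjusted p under 0.05, 7.51% of all tested genes were lower by edgeR. In the longest class above, these shares were 78.3% and 17.3%, and the lists were not matched for length or level. COMPASS is the complex around the H3K4 enzymes, and 11 of its listed subunits were tested, with Hcf at 0 like all 111 listed genes of chromosome 4. None passed by edgeR (0 higher and 1 lower at an unadjusted p under 0.05), DESeq2 or limma voom, and the median log2 fold change was 0.00. The subunits with the lowest p were Ncoa6 and Ptip, both of the trr complex. Ncoa6 was at 114, 115 and 133 CPM in Kdm3 KO and 149, 153 and 137 CPM in wBerlin, a log2 fold change of -0.28 (adjusted p = 0.197). Ptip had a log2 fold change of -0.21 (adjusted p = 0.354). Utx, the demethylase of that complex, was at 57.6 ± 1.79 CPM in Kdm3 KO and 58.4 ± 1.74 CPM in wBerlin (SD, n = 3 each).

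Of 8 subunits and accessory proteins of PRC2, the complex of E(z), none passed by any of the 3 tools (0 higher and 2 lower at an unadjusted p under 0.05 by edgeR), with a median of -0.18, and 1 was called lower with the filter of 5 CPM. Scm, which links PRC2 to PRC1, was at 80.5, 71.0 and 78.9 CPM in Kdm3 KO and 94.4, 87.4 and 88.2 CPM in wBerlin (log2 fold change -0.23, adjusted p = 0.263). The accessory gene jing had a log2 fold change of -0.25 (adjusted p = 0.327). The core subunit gene esc was at 22.6 ± 0.840 CPM in Kdm3 KO and 22.6 ± 2.61 CPM in wBerlin (SD, n = 3 each).

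PRC1, PhoRC and PR-DUB are the Polycomb complexes that read H3K27 methylation, bind DNA or act on ubiquitinated histone H2A. Of 13 tested genes none passed by edgeR (0 at an unadjusted p under 0.05), DESeq2 or limma voom, and 11 had changes below 0, with a median of -0.11. Su(z)2 and Kdm2, with the lowest p, had log2 fold changes of -0.16 and -0.16 (adjusted p 0.453 and 0.479). Of 18 Trithorax-group remodelers and cofactors none passed by any of the 3 tools, 17 were below 0 and 5 were lower at an unadjusted p under 0.05, with a median of -0.15. Beside both lists, 43.6% of all tested genes were below 0, and 78.3% in the longest class. At that unadjusted p, 7.51% and 17.3% were lower by edgeR. With upper quartile scaling 1 of the 18 remodelers and cofactors was called lower, and 2 with the filter of 5 CPM. The ATPase gene brm was at 48.9, 47.5 and 53.0 CPM in Kdm3 KO and 60.2, 76.3 and 57.7 CPM in wBerlin (log2 fold change -0.38, adjusted p = 0.146). Its partner subunit gene Bap111 had a log2 fold change of -0.33 (adjusted p = 0.185).

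None of 7 partners of the H3K36, H3K79 and H4K20 enzymes passed by any of the 3 tools (0 at an unadjusted p under 0.05), with a median of -0.15. The genes lilli and Alh, related to human partners of the Dot1 enzyme, had log2 fold changes of -0.19 and -0.16 (adjusted p 0.426 and 0.450). None of 9 genes of demethylases and related proteins passed by the same tools (0 at an unadjusted p under 0.05), with a median of -0.06. Among them the H3K4 demethylase gene Kdm5 was at 212 ± 15.2 CPM in Kdm3 KO and 235 ± 5.72 CPM in wBerlin (SD, n = 3 each, edgeR adjusted p = 0.556), and the JmjC gene JMJD6 had an adjusted p of 0.664. None of 15 Smyd genes, which encode further proteins with SET domains, passed by the same tools (0 higher and 4 lower at an unadjusted p under 0.05). SmydA-9 was at 30.6, 37.8 and 47.0 CPM in Kdm3 KO and 43.7, 102 and 148 CPM in wBerlin, so that wBerlin replicate 1 lay among the Kdm3 KO libraries (log2 fold change -1.34, adjusted p = 0.0867). SmydA-2 had a log2 fold change of -0.54 (adjusted p = 0.228). Without wBerlin replicate 1 there were 3 Smyd genes called lower, as in the 4 libraries.

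The H3K9 methyltransferase list gave a called gene, wde, which encodes a cofactor of the H3K9 methyltransferase Eggless. It was at 49.0, 46.2 and 44.1 CPM in Kdm3 KO against 82.0, 75.7 and 73.6 CPM in wBerlin. The groups lay far apart, and wde fell by 0.73 on the log2 scale (SE 0.0894, edgeR adjusted p = 0.00353), to 60.2% of wBerlin. The other 3 genes of that list, Su(var)3-9, egg and G9a, did not pass (adjusted p 0.169, 0.755 and 0.950), and Su(var)3-9 was at an unadjusted p under 0.05, lower in Kdm3 KO. The fitted change of wde was larger than that of any of the 10 methyltransferases, whose intervals reach no lower than 72.6% of wBerlin.

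Genes that Trithorax and Polycomb proteins are known to control were also listed. Of 23 tested homeotic and segmentation genes 1 fell and 0 rose (6 lower and 0 higher at an unadjusted p under 0.05, 4 lower by DESeq2, 1 by limma voom). The gene that fell, Dll, encodes a homeodomain protein of antennae and limbs. It was at 22.2, 22.2 and 25.2 CPM in Kdm3 KO and 30.1, 45.9 and 51.9 CPM in wBerlin (log2 fold change -0.87, SE 0.179, edgeR adjusted p = 0.0322). Its call ended in each fit with 1 library left out other than that without wBerlin replicate 1, at adjusted p of 0.0690 to 0.108. Without wBerlin replicate 1 there were 5 lower calls in the list, and 5 in the 4 libraries. Antennal genes moved with it, at a summed 23.5, 43.3 and 39.8 CPM in Kdm3 KO and 53.9, 316 and 434 CPM in wBerlin over the 9 listed, none at 0, and 6 of the 9 were called lower by edgeR, against 7 by DESeq2 and 0 by limma voom. With 1 library left out, 3 were called without Kdm3 KO replicate 3 or wBerlin replicate 2, 4 without Kdm3 KO replicate 2 or wBerlin replicate 3, 5 without Kdm3 KO replicate 1 and 8 without wBerlin replicate 1. Both Dll and the antennal sum were lowest in replicate 1 among the wBerlin libraries, and the part of antennal tissue in the Dll value was not tested.

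Of 6 replacement and variant histone genes, substrates of the enzymes, none passed by any of the 3 tools (0 higher and 1 lower at an unadjusted p under 0.05). His2Av was at 51.7 ± 7.86 CPM in Kdm3 KO and 66.4 ± 11.0 CPM in wBerlin (SD, n = 3 each, edgeR adjusted p = 0.288), and His3.3B was at 795 ± 97.5 and 899 ± 108 CPM. Cell cycle genes were listed because Set8 is regulated through the cycle. All 18 were tested and had changes below 0, and 1 fell (7 lower and 0 higher at an unadjusted p under 0.05, 4 lower by DESeq2, 0 by limma voom), with a median of -0.56. Over all tested genes 43.6% had changes below 0, and 7.51% were lower at that unadjusted p by edgeR. Without wBerlin replicate 2 the median of the cell cycle list was -0.28 with 0 calls, and without wBerlin replicate 3 it was -0.85 with 5 calls. The mitotic cyclin gene CycB fell to 2.23, 4.77 and 2.44 CPM in Kdm3 KO, against 11.9, 26.8 and 6.59 CPM in wBerlin (log2 fold change -2.27, SE 0.484, edgeR adjusted p = 0.0381). Its call ended without Kdm3 KO replicates 1 or 3 or wBerlin replicate 2, at adjusted p of 0.0844, 0.128 and 0.115. It also ended in the fit to 4 libraries (0.0548), by limma voom (0.144), with upper quartile and total count scaling (0.0665 and 0.0710) and with the filter of 5 CPM (0.0566). The 9 female germline markers, none of them at 0, summed to 92.1 to 110 CPM in Kdm3 KO and 88.0 to 106 CPM in wBerlin. The 8 glial markers summed to between 3085 and 3789 CPM in Kdm3 KO and between 2954 and 3300 CPM in wBerlin.

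**Figure D5:**
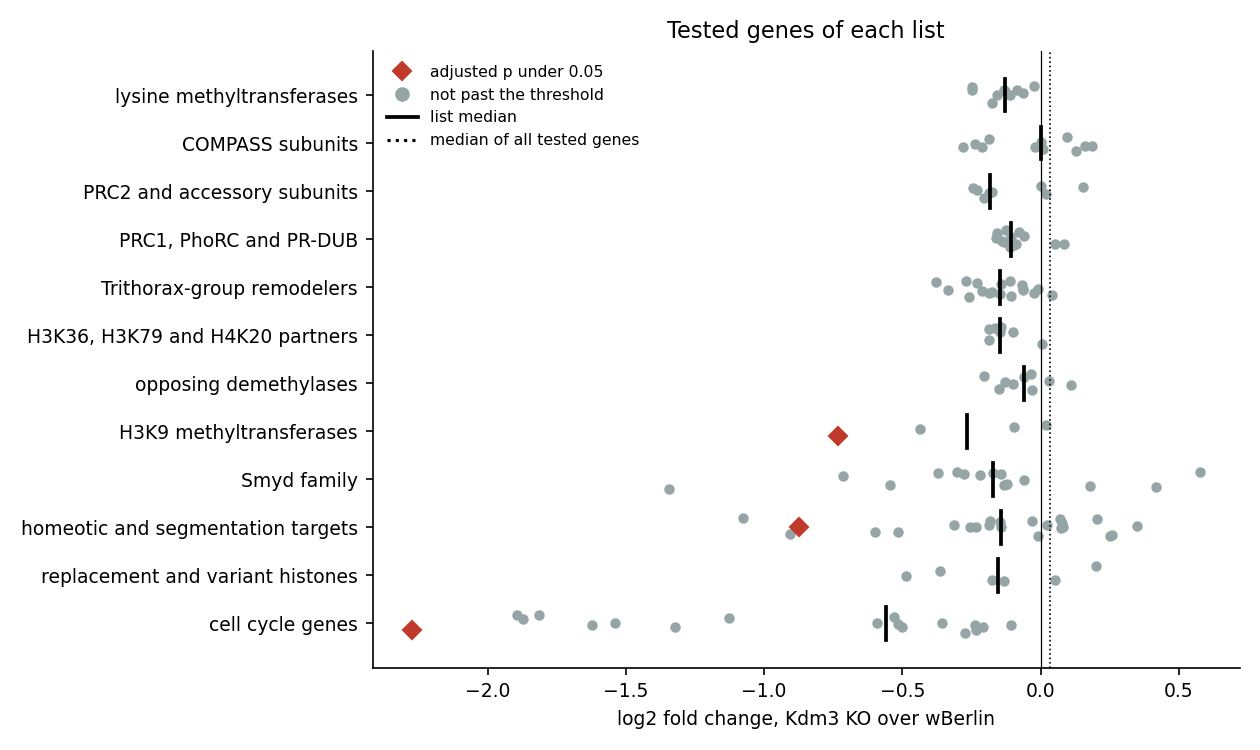
Log2 fold change, Kdm3 KO over wBerlin, of each tested gene of the methyltransferases and of 11 lists of partner, target or related genes, with list medians as bars and the median of all tested genes as a dotted line. The red diamonds are the 3 called genes, wde at -0.73, Dll at -0.87 and CycB at -2.27, and the 10 methyltransferases lie between -0.25 and -0.02.

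As a last description, the gene with the most similar profile over the 6 libraries was found for 9 of the members by Pearson's correlation of log2 CPM among 8583 other genes, each averaging 5 CPM or more. The nearest were gukh for trx, Nak for trr, CG18428 for E(z), wts for ash1, mam for Set2, elB for NSD, CG8677 for gpp, CG31635 for Set8 and Apc for Hmt4-20, at r between 0.980 and 0.998. With only 6 libraries such values are common. Between 14 and 131 genes reached r of at least 0.95 with a given one of these members, the fewest for Set8 and the most for ash1, and no gene was the nearest for 2 of them.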

How the data were processed

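RNA was measured in 6 libraries of fly heads, 3 Kdm3 KO and 3 wBerlin. The authors deposited unnormalised counts of reads for each gene. Per the submitters' processing notes, STAR, SAMtools, HTSeq and DESeq2 were used with build BDGP6. No source used here gives versions, settings or strand. Symbols, positions and exon lengths came from the Ensembl annotation of BDGP6 (17626 of 17753 genes matched). From the counts, edgeR 4.0.16 in R 4.3.3 (TMM, filterByExpr by genotype, glmQLFit and glmQLFTest, two-sided) was fitted to all 14069 genes passing the filter, with Benjamini-Hochberg adjustment over all of them, and calls were made at an adjusted p under 0.05. Standard errors and 95% intervals were derived from the quasi-likelihood F statistic. The fit was tested on simulated data. All fold changes are Kdm3 KO over wBerlin. A count of 3 corresponds to 0.106 to 0.151 CPM, counting error only. Counts of same-genotype libraries differed well beyond sampling noise (chi-square over its degrees of freedom 16.8 to 65.8), and none was treated as a copy.

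The members and lists were chosen with earlier results of these data known, and the antennal list was added after the values were seen. Named genes are the 10 members, Kdm3, up to 4 called genes of each list by p (where none was called, the 2 with the lowest p) and the most similar gene of each member (that of Set1 is not reported here); marker lists are given as sums with their called genes, and esc, Utx, Afti, mino and the other genes of the H3K9 list were named after their values were seen. Alternatives used DESeq2 1.42.0, limma 3.58.1 (voom), other scalings and filters, a replicate block and each library left out.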

Additional observations from a re-analysis of the deposited data

How the results depend on the processing

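With 15 alternatives (other scalings, filters and tools, the replicate block, each library left out, and the 4 libraries), no methyltransferase was called higher, and trr was the 1 called lower with upper quartile scaling and with the filter of 5 CPM, with 0 called in the other 13. The median log2 fold change of the members ran from -0.21 to -0.09, from without wBerlin replicate 3 to without Kdm3 KO replicate 2. The change of Set1 turned to 0.0127 when Kdm3 KO replicate 2 was left out (-0.107 to 0.0127 with 1 library left out) and to 0.0311 in the 4 libraries, and that of E(z) to 0.0079 in the 4 libraries, and the cause was not tested. Lower calls over the 11 partner lists numbered 3, against 5 with the filter of 5 CPM, 9 by DESeq2, 9 in the 4 libraries, and 1 to 10 with 1 library left out, with 1 without Kdm3 KO replicates 1 or 3 or wBerlin replicate 2, 6 without wBerlin replicate 3 and 10 without wBerlin replicate 1. Over all genes the 303 higher calls became 492 with the filter of 5 CPM, 514 by DESeq2, 606 in the 4 libraries, and 181 to 574 with 1 library left out, lowest without wBerlin replicate 2 and highest without Kdm3 KO replicate 2. The 129 lower calls became 212 with upper quartile scaling, 266 with no filter on low counts, 276 with the filter of 5 CPM, 402 by DESeq2, 476 in the 4 libraries, and 62 to 467 with 1 library left out, lowest without wBerlin replicate 2 and highest without wBerlin replicate 1.

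Across genotypes, same-numbered libraries were the most alike in their deviations for replicates 1 and 2 but not for replicate 3. Deviations of same-numbered libraries from their genotype means had correlations of 0.34, 0.25 and -0.05 across genes for replicates 1, 2 and 3. Those of libraries with unlike numbers ran from -0.33 to 0.18, so whether the replicate numbers mark pairs is not settled. With the replicate number as a block, 0 methyltransferases were called, partner lists had 12 lower calls (7 cell cycle, 2 Smyd, 2 homeotic and segmentation and 1 H3K9), and all genes 417 higher and 362 lower. The lowest count of any member was 672, a counting error of 3.86%, which covers sampling of reads only.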
